A study of Mus musculus with 4 samples.

Results

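The genes described here are mouse imprinted genes, chosen by name from a list of 34 symbols that was grouped by imprinted domain and by the parental allele each gene is known to be expressed from. Of the 34, 33 had a row of their own among the 24637 genes of the count table, and Kcnq1ot1 had none under that name. All 33 averaged 10 or more normalized counts and were tested among 16926 genes in all. They are 16 maternally expressed genes, 16 paternally expressed genes and Gnas, whose transcripts come from either allele depending on promoter and tissue. The allele of origin was not measured, since the reads were counted per gene, and each value below is the sum over both parental copies. The classes are therefore those known beforehand, and whether each gene was imprinted in these cells was not tested.

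Messenger RNA was sequenced from embryonic stem cell (ESC) lines driven towards cardiomyocytes, for 5 days as embryoid bodies (EBs) and 9 further days on gelatin. There were 2 WT (Taf4+/+) lines and 2 lines labelled Taf4a-/- (Taf4-/-), with 1 library from each line. Per the study's methods the lines were isolated from blastocysts of Taf4a+/- crosses, and the ESCs had been kept on inactivated feeder fibroblasts in serum and LIF before differentiation. Taf4a encodes TAF4, a core subunit of the general transcription factor TFIID, and the comparison asks which genes differ after differentiation without it. Each line descends from a single blastocyst, so that a difference carried by a line and an effect of the genotype can be separated only as far as 2 lines for each genotype allow.

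An imprinted gene is transcribed mainly from the copy inherited from the mother or mainly from the copy inherited from the father. The choice is set by DNA methylation laid down in the egg or sperm at imprinting control regions, which usually act on several genes of a domain, so that neighbouring genes are often expressed from opposite alleles. Many imprinted genes act on growth of the embryo and placenta, and ESC lines kept in culture can lose or gain imprints individually, which is why each line is given singly below.

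Depth ran from 21732746 to 27733034 reads assigned to genes, recovered from the deposited values. Taf4a itself was at 889 and 678 normalized counts in the WT lines and 1722 and 1799 in the lines labelled Taf4a-/-. Per the study's methods the null allele lacks only some exons, and a gene-level count, which includes reads from the exons that remain, cannot check the labels. The cells were mixtures. All 12 cardiomyocyte markers were lower in the mutant lines (summed level 29131 to 31129 in WT and 3025 to 3341 in mutant lines), as were 12 of 12 visceral endoderm and hepatic markers (84245 to 99087 against 1176 to 1853, with Alb at 0 in both mutant lines), 11 of 11 macrophage markers (12435 to 14640.2 against 257 to 509, with C1qa at 0 in both mutant lines) and 8 of 12 fibroblast and mesenchyme markers (439982 to 608917 against 55112 to 69077, none at 0 in any line, with 1 marker higher). Pluripotency markers were higher for 9 of 11 (2968 to 5889 against 17530.4 to 19694, none at 0). Of 8 trophoblast and 9 neural markers tested, 1 each was lower, and at an unadjusted p under 0.05 3 trophoblast markers were higher and 3 lower, and 0 neural markers higher and 3 lower (summed levels 3934 to 5911 against 6806 to 8478, and 4739 to 5083 against 5168 to 6713). Of 10 endothelial markers (15029 to 16712 against 11339.8 to 14142) 0 passed the test, with 3 lower at an unadjusted p under 0.05 and 1 by voom, and of 3 skeletal muscle markers (449 to 554 against 238 to 345) 0 passed, with 0 at an unadjusted p under 0.05 and 0 by voom. In bulk RNA, fewer cells of a type and less RNA per cell cannot be told apart, and the part of these shifts in the results below was not tested unless a value is given beside them. The lines also differed in the X-linked transcript Xist, which was at 6.14 and 7.27 in the WT lines and at 217 and 6470.0 in the mutant lines, and in the Y-linked Eif2s3y, which was at 1688 and 309 in the first line of each genotype and 0 in the second.

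Imprinted transcripts were abundant in every line. The 33 genes together held 3.52% and 3.23% of all normalized counts in the WT lines and 3.29% and 3.96% in the mutant lines. Igf2, the fetal insulin-like growth factor, had the highest value of any gene in each of the 4 libraries. H19 ranked 10th and 5th in the WT lines and 3rd and 2nd in the mutant lines, and Peg3 and Peg10 were within the first 9 genes in every library. At the other end, Ascl2 lay between 22.5 and 46.5 normalized counts and Slc22a18 between 32.1 and 64.4. The plot of values by line shows the whole range.

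**Figure D1:**
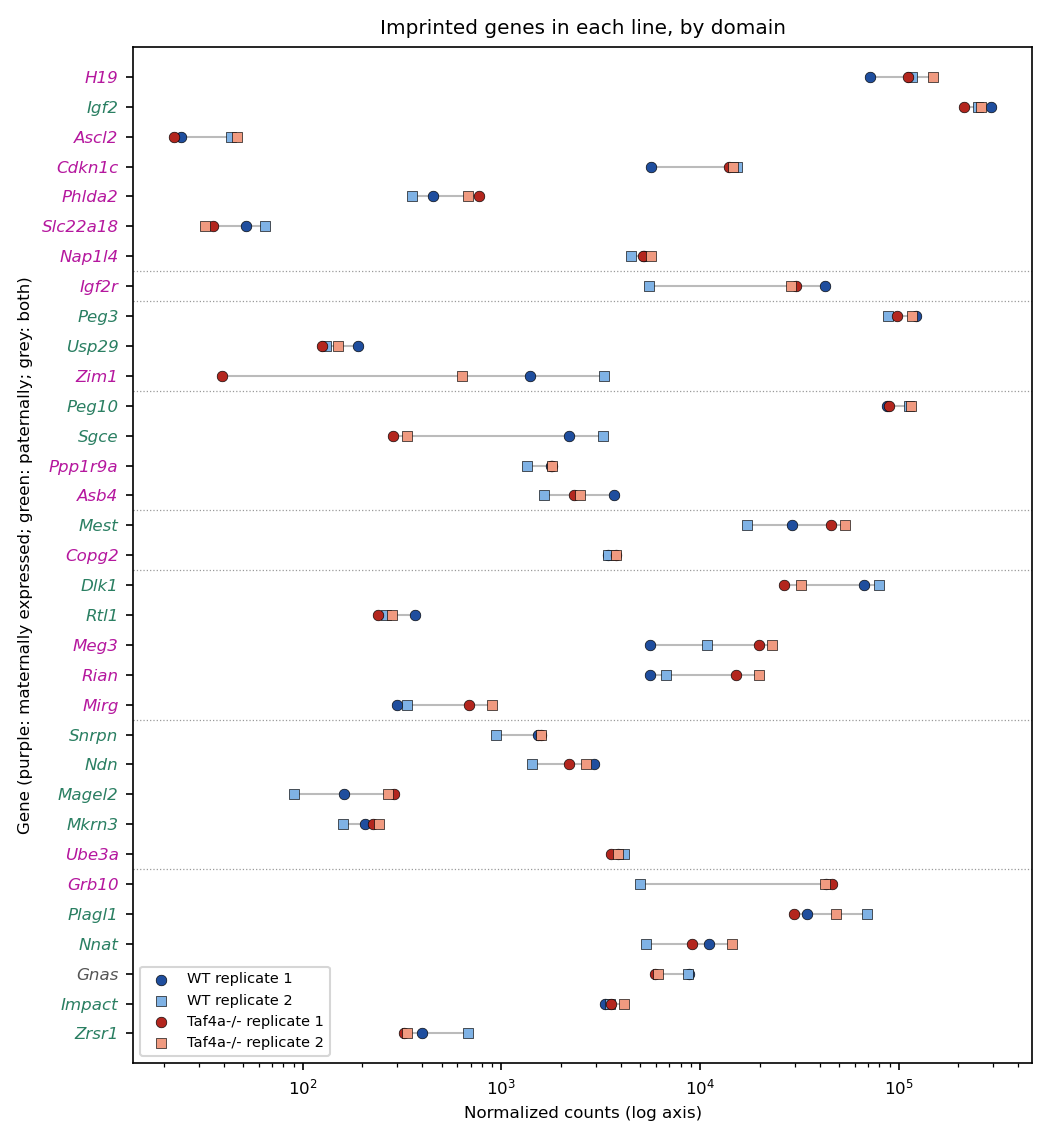
Normalized counts (log axis) of the 33 imprinted genes, one row for each gene, with dotted lines between domains; each point is 1 line and the grey bar joins the lowest and the highest line. Igf2r and Grb10 have a single low point, WT replicate 2, while Sgce, Dlk1, Meg3, Rian and Mirg separate the genotypes.

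Between genotypes, 6 of the 33 genes rose and 3 fell, and 24 did not pass the test. Calls are limma tests of the difference on the log2 scale, with p adjusted over all 16926 genes and a threshold of 0.05. Among all genes tested, 11.3% were called higher, 17.3% lower and 28.6% either way, so that the share of imprinted genes called was near that of genes in general. Of all genes called 39.4% were higher, a share of 52.2% under quantile normalization and 49.7% under upper-quartile scaling, while the 9 imprinted genes called remained called under both. The median log2 change of the imprinted genes was 0.14, against -0.01 for all genes, and it was 0.046 without WT replicate 2, 0.079 without mutant replicate 2 and 0.22 without mutant replicate 1. The genes that rose were Meg3, Rian, Mirg and Phlda2, which are maternally expressed, and Mest and Magel2, which are paternally expressed. The genes that fell were the paternally expressed Sgce and Dlk1, and Gnas.

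Split by allele, 4 of 16 maternally expressed genes were called higher and 0 lower, with a median log2 change of 0.35. At an unadjusted p under 0.05, and likewise by voom, 1 maternally expressed gene was lower, Zim1. Of 16 paternally expressed genes 2 were called higher and 2 lower, with a median of 0.04. Without WT replicate 2 the median of the maternally expressed genes was 0.09 and that of the paternally expressed genes -0.07, which was -0.12 without mutant replicate 2. Without mutant replicate 1 the medians were 0.57 and 0.19, and with a filter at a mean of 50, which leaves out Ascl2 and Slc22a18, the median of the maternally expressed genes was 0.55. No test compared the 2 classes, and 3 of the 4 maternally expressed genes called belong to a single domain. The values of the 2 genotypes did not overlap for 17 of the 33 genes, 11 with both mutant lines above both WT lines and 6 below. Over all genes tested, non-overlap occurred for 71.1%, with 34.5% above and 36.6% below. The counts of maternally expressed genes summed to 194171 and 179891 in the WT lines and 254933 and 297013 in the mutant lines, and those of paternally expressed genes to 653886 and 633794 in the WT lines and 520216 and 649852 in the mutant lines. The plot of changes gives every gene with its standard error.

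**Figure D2:**
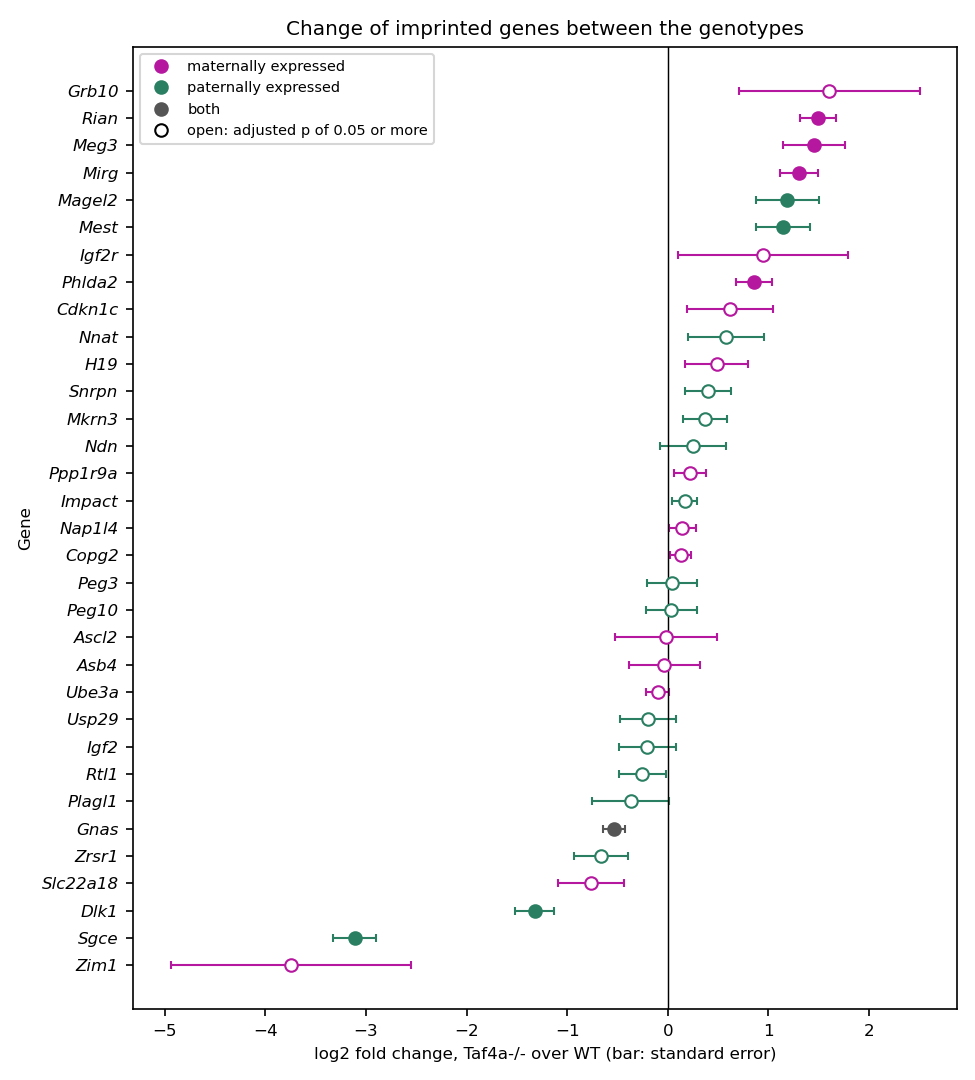
Log2 fold change between genotypes (mutant over WT, horizontal axis) of each imprinted gene, ordered by size, with its standard error as a bar and filled points for an adjusted p under 0.05. Sgce and Dlk1 lie at -3.11 and -1.32 with short bars, while Grb10, Igf2r and Zim1 have the widest bars.

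In the Dlk1-Dio3 domain, genes of opposite parental origin changed in opposite directions, apart from Rtl1, which did not pass the test. This domain on the distal part of chromosome 12 holds protein-coding genes expressed from the paternal copy and a long run of non-coding RNAs expressed from the maternal copy, which host many small RNAs. Dlk1, a transmembrane ligand of the EGF-repeat family that restrains differentiation of several mesenchymal cell types, starts 88178 bases upstream of Meg3. Dlk1 (NCBIM37 chr12:110691033-110701546, plus strand) was at 66957 and 79594 normalized counts in the WT lines and at 26352 and 32268 in the mutant lines. Both mutant lines lay below both WT lines, and the level fell by 1.32 on the log2 scale (SE 0.19, adjusted p = 0.00677). Without mutant replicate 1 the change was -1.18 with an adjusted p of 0.0679.

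The 3 maternally expressed non-coding RNAs measured there rose. Meg3 (chr12:110779211-110809936), the first of the run, was at 5607 and 10908 in the WT lines and at 19906 and 23019 in the mutant lines, a log2 change of 1.45 (SE 0.30, adjusted p = 0.0195), a call lost with no variance trend (adjusted p = 0.0733). The WT lines differed from each other 1.95-fold, and the lower mutant line was still above the higher WT line. Rian (chr12:110842155-110899919), which hosts small nucleolar RNAs, was at 5623 and 6721 in the WT lines and at 15109.6 and 19762 in the mutant lines, a log2 change of 1.49 (SE 0.18, adjusted p = 0.00379). Mirg (chr12:110973191-110987665), which hosts a large microRNA cluster, was at 299.8 and 337 in the WT lines and at 689 and 899 in the mutant lines, a log2 change of 1.31 (SE 0.19, adjusted p = 0.00639). For each of the 3 RNAs both mutant lines were above both WT lines.

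Rtl1, a paternally expressed gene derived from a retrotransposon and needed in the fetal capillaries of the placenta, did not separate the genotypes. It was at 366 and 262 in the WT lines and 239.8 and 281 in the mutant lines (log2 change -0.25, SE 0.23, adjusted p = 0.438). With a line left out the Rtl1 change ranged from -0.49 to -0.013. The library kit did not keep strand, and miRNA genes such as Mir127 are annotated opposite Rtl1 exons. Any reads from RNA of that opposite strand could be counted as Rtl1, and their part was not measured. Dio3, the paternally expressed thyroid hormone deiodinase at the far end of the domain, was not among the 34 names and belongs to the list of other imprinted genes. It fell from 641 and 560.0 in the WT lines to 239.8 and 333 in the mutant lines (log2 change -1.08, SE 0.21, adjusted p = 0.0158), a call lost without WT replicate 1, WT replicate 2 or mutant replicate 1, with changes of -0.98, -1.18 and -0.85, and with no variance trend (adjusted p = 0.0509). The ratio of Meg3 to Dlk1 counts within a library was 0.0837 and 0.137 in the WT lines and 0.755 and 0.713 in the mutant lines, a description built from the same values.

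**Figure D3:**
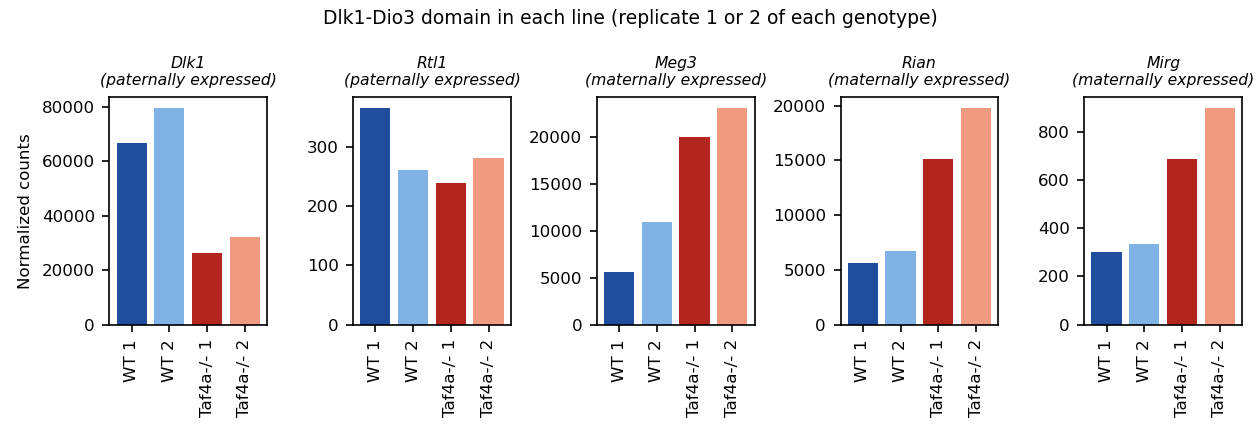
Normalized counts (vertical axis, from 0, separate scale for each gene) of 5 genes of the Dlk1-Dio3 domain, with 1 bar for each line. Dlk1 is lower in both mutant lines, Meg3, Rian and Mirg are higher in both, and the Rtl1 bars of the mutant lines lie within or below the range of the WT lines.

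The 300-base windows around the starts of Dlk1 and Meg3, from 250 bases before to 50 after, are shown because the 2 genes changed in opposite directions within the same domain. They are RefSeq promoters (table of GRCm38.p6) that match NCBIM37 exactly at chr12:110690783-110691082 and chr12:110778956-110779255, both on the plus strand. Capitals mark every occurrence, on either strand, of TATAAA, the letters of the TATA box bound by the TBP subunit of TFIID, and of TGCCGC, the hexamer recognised by the imprint-keeping zinc finger protein Zfp57.
Dlk1: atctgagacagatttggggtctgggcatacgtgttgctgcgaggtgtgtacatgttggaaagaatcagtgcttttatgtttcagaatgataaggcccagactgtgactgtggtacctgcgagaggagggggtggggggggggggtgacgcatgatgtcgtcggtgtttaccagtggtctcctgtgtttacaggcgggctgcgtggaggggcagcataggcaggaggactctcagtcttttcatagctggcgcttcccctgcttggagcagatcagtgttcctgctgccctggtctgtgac
Meg3: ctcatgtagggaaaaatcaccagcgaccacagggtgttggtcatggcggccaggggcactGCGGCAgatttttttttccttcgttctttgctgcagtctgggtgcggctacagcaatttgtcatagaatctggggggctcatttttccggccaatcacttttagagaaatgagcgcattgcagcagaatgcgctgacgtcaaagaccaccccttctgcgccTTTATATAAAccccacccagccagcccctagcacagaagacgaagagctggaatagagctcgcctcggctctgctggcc
The Dlk1 window holds neither motif. The Meg3 window holds TATAAA on the plus strand 25 bases before the start, overlapped by the same motif on the minus strand 29 bases before it, and TGCCGC on the minus strand 190 bases before it. RefSeq lists 2 starts for Meg3. A window holding either motif was taken before one without, and nearness to the NCBIM37 start came after that. The start shown is chr12:110779206, and the annotated one is chr12:110779211.

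Small RNAs were not measured, since the libraries were made from polyadenylated RNA, but Meg3 and Mirg, which host some of them, were. The mature sequences of 3 miRNAs of the domain are shown, with the seed (bases 2 to 8) in capitals, to mark where in the domain they arise. miR-770-5p lies in a Meg3 exon at chr12:110801920-110801941, miR-410-3p in a Mirg exon at chr12:110981974-110981994, and miR-127-3p at chr12:110831098-110831119 on the strand opposite to an Rtl1 exon. The 3 seeds differ from one another.
mmu-miR-770-5p: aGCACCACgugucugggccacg
mmu-miR-410-3p: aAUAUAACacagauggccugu
mmu-miR-127-3p: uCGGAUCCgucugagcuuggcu
The library kit did not keep strand. Of the Meg3 exonic length 6.79% is shared with an antisense transcript, Gm17639, and reads there cannot be assigned to either gene.

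Sgce showed the largest change of the 9 imprinted genes called, and its divergent neighbour Peg10 showed none that passed the test. Sgce encodes epsilon-sarcoglycan, a member of the membrane complex that links dystrophin to the cell surface, and Peg10 is a retrotransposon-derived gene needed for the placenta. Both are paternally expressed and their annotated starts are 102 bases apart on chromosome 6, Sgce on the minus strand (chr6:4624350-4697204) and Peg10 on the plus strand (chr6:4697306-4710514). Sgce was at 2194 and 3255 normalized counts in the WT lines and at 285 and 334 in the mutant lines. Both mutant lines lay far below both WT lines, with WT means 8.81-fold above mutant means, and the level fell by 3.11 on the log2 scale (SE 0.21, adjusted p = 0.00109).

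Peg10 was at 86956 and 113342 in the WT lines and at 89371 and 115870.0 in the mutant lines (log2 change 0.04, SE 0.25, adjusted p = 0.928), with the values of the genotypes interleaved. Sgce counts were 2.52% and 2.87% of Peg10 counts in the WT lines and 0.319% and 0.288% in the mutant lines. The summed fibroblast and mesenchyme markers were lower in the same mutant lines, as given above, and their part in the Sgce result was not tested. The maternally expressed neighbours Ppp1r9a and Asb4 did not pass the test. Ppp1r9a, which encodes the actin-binding protein neurabin, was at 1788 and 1339 in the WT lines and 1805 and 1804 in the mutant lines (adjusted p = 0.339). Asb4, a substrate adaptor of ubiquitin ligases, was at 3697 and 1643 in the WT lines and 2325 and 2491 in the mutant lines (adjusted p = 0.95), so that both mutant lines lay between the WT lines. The change of Ppp1r9a passed the test without WT replicate 1 (0.43) and was 0.014 without WT replicate 2, and that of Asb4 was -0.62 without WT replicate 2, where it passed, and 0.55 without WT replicate 1, where it also passed. The paraoxonase genes Pon2 and Pon3, from the list of other imprinted genes, lie between them and fell. Pon2 was at 928 and 982 in the WT lines and 554 and 544 in the mutant lines (log2 change -0.80, SE 0.13, adjusted p = 0.00993), a call lost without mutant replicate 2 (-0.78). Pon3 was at 95.6 and 113 in the WT lines and 9.79 and 38.7 in the mutant lines (log2 change -2.34, SE 0.62, adjusted p = 0.0374). The Pon3 call was lost without WT replicate 1 (-2.46), WT replicate 2 (-2.22) or mutant replicate 1 (-1.40), under quantile normalization (-2.00) and with no variance trend.

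In the Mest-Copg2 domain, further along chromosome 6, the paternally expressed Mest rose. Mest (chr6:30673547-30698457, plus strand), an alpha/beta-hydrolase of mesoderm and adipose tissue, was at 29155 and 17252 in the WT lines and 45730.0 and 53755 in the mutant lines. Both mutant lines were above both WT lines, with a log2 change of 1.14 (SE 0.27, adjusted p = 0.0267). The call was lost without WT replicate 2 (0.77) and without mutant replicate 2 (1.03), and with no variance trend. Copg2, a coatomer subunit gene that meets Mest tail to tail, was at 3455 and 3445 in the WT lines and 3774 and 3763 in the mutant lines (log2 change 0.13, SE 0.11, adjusted p = 0.402). The annotated exons of the 2 genes overlap over 904 bases, 23.0% of Mest and 20.2% of Copg2, where unstranded reads cannot be told apart. Klf14, a maternally expressed zinc finger gene of this domain from the list of other imprinted genes, fell from 444 and 419 in the WT lines to 93.0 and 114 in the mutant lines (log2 change -2.06, SE 0.21, adjusted p = 0.00268).

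The promoter of Mest is shown because it carries the Zfp57 hexamer at 2 places. Of 3 RefSeq starts it is the one at chr6:30688050, with the window chr6:30687800-30688099 on the plus strand, and the capitals mark the same motifs as above. Windows holding either motif were taken before windows without, and the annotated gene begins at chr6:30673547.
Mest: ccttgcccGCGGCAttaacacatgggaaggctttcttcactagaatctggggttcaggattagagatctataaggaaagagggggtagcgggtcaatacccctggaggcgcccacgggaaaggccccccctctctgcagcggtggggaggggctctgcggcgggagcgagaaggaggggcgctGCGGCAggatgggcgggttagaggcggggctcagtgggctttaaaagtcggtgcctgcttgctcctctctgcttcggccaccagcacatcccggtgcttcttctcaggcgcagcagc
TGCCGC occurs on the minus strand 242 and 67 bases before the start, and TATAAA is not in the window.

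The chromosome 7 domains around Igf2-H19 and Kcnq1 held 7 of the 33 genes, of which Phlda2 passed the test. Igf2, one of the 7, had the highest normalized count per gene in every line. H19, a maternally expressed non-coding RNA, and Igf2 have starts 88673 bases apart and share enhancers. Igf2 (chr7:149836673-149852721, minus strand) was at 292119 and 249893 in the WT lines and 213012 and 258659.6 in the mutant lines (log2 change -0.20, SE 0.28, adjusted p = 0.619). With a line left out the Igf2 change ranged from -0.34 to -0.063. H19 (chr7:149761434-149764048, minus strand) was at 71583 and 117129.6 in the WT lines and 111028 and 148192 in the mutant lines (log2 change 0.49, SE 0.31, adjusted p = 0.278), a change of 0.13 without WT replicate 1 and 0.84 without WT replicate 2, neither of which passed the test. For both genes the genotypes overlapped. Per kilobase of exon Igf2 was above H19 in the first WT line and below it in the other 3 lines, with H19 at 30178 and 49380.1 and Igf2 at 53180.2 and 45493 counts per kilobase in the WT lines, and H19 at 46808 and 62476 and Igf2 at 38779 and 47089 in the mutant lines. The H19 count was 24.5% and 46.9% of the Igf2 count in the WT lines and 52.1% and 57.3% in the mutant lines.

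An exon of H19 holds miR-675, whose mature 5p strand lies at chr7:149763017-149763038 on the minus strand and is shown, with its seed in capitals, as the processed product known for this abundant RNA.
mmu-miR-675-5p: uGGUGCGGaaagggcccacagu
Its seed is not shared with the miRNAs of the Dlk1-Dio3 domain shown above.

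Phlda2, a maternally expressed pleckstrin-domain gene that limits growth of the placenta, was at 451 and 355 in the WT lines and 771 and 681 in the mutant lines. Both mutant lines were above both WT lines (log2 change 0.86, SE 0.18, adjusted p = 0.0193), a call lost without WT replicate 2 (0.68) and without mutant replicate 1 (0.77), and with no variance trend. The other listed genes of the domain did not pass the test, while Kcnq1 itself, a potassium channel gene from the list of other imprinted genes, fell. Kcnq1 was low throughout, at 26.3 and 40.5 in the WT lines and 4.89 and 11.1 in the mutant lines (log2 change -2.00, SE 0.54, adjusted p = 0.0396). The Kcnq1 call was lost without WT replicate 1 (-2.30), WT replicate 2 (-1.70) or mutant replicate 1 (-1.48), and also with no filter, under quantile normalization (-1.62) and with no variance trend. Cdkn1c, the cyclin-dependent kinase inhibitor p57, was at 5683 in the first WT line, 15425 in the second, and 14037 and 14701 in the mutant lines (log2 change 0.62, SE 0.43, adjusted p = 0.313). The first WT line stood apart, 2.71-fold below the second. Without the first WT line the change was -0.10, and without the second it was 1.34 and passed the test. Slc22a18, a transporter gene, was at 51.7 and 64.4 in the WT lines and 35.2 and 32.1 in the mutant lines (log2 change -0.76, SE 0.33, adjusted p = 0.132). Nap1l4, a histone chaperone gene at the edge of the domain, was at 5254 and 4513 in the WT lines and 5143 and 5636 in the mutant lines (adjusted p = 0.433). Ascl2, a transcription factor of the trophoblast, was at 24.5 and 43.6 in the WT lines and 22.5 and 46.5 in the mutant lines (adjusted p = 0.985).

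The Phlda2 promoter is printed because it is a window in which TATAAA stands at the usual distance from the start. It lies at chr7:150688380-150688679 on the minus strand, with the start at chr7:150688429, and TATAAA begins 30 bases before the start.
Phlda2: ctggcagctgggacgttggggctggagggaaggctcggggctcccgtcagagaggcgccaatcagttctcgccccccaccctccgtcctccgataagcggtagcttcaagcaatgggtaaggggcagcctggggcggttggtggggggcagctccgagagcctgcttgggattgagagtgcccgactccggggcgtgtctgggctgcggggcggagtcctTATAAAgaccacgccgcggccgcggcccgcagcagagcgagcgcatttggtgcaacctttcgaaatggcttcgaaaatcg

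In the Snrpn-Ube3a domain, Magel2 alone of 5 genes passed the test. This domain on chromosome 7 corresponds to the region affected in Prader-Willi and Angelman syndromes. Magel2, a paternally expressed MAGE-family gene involved in protein sorting from endosomes, was at 162 and 90.4 in the WT lines and 288 and 268 in the mutant lines (log2 change 1.19, SE 0.31, adjusted p = 0.0363), with both mutant lines above both WT lines. Without WT replicate 2, mutant replicate 1 or mutant replicate 2 in turn, the change was 0.77, 1.14 and 1.24 and did not pass the test, nor did it with no variance trend. Its MAGE-family neighbour Ndn, which encodes necdin, was at 2912 and 1422 in the WT lines and 2183 and 2683 in the mutant lines (log2 change 0.25, adjusted p = 0.591), with the mutant lines between the WT lines. Mkrn3, a ubiquitin ligase gene, was at 205 and 159 in the WT lines and 226 and 241 in the mutant lines (log2 change 0.37, adjusted p = 0.251). With a line left out the Mkrn3 change ranged from 0.19 to 0.55. Snrpn, which encodes a splicing protein, was at 1536 and 942 in the WT lines and 1583 and 1593 in the mutant lines (log2 change 0.40, adjusted p = 0.235). Without WT replicate 1 the changes of Ndn (0.77) and Snrpn (0.75) passed the test, while without WT replicate 2 they were -0.27 and 0.048 and did not. In all 4 paternally expressed genes WT replicate 2 was the lowest line. Ube3a, the ubiquitin ligase gene that is maternally expressed in neurons, was at 3852 and 4146 in the WT lines and 3570.1 and 3886 in the mutant lines (adjusted p = 0.541).

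The Magel2 promoter (chr7:69521615-69521914, plus strand) is shown for comparison with that of Phlda2, since TATAAA is present but 165 bases before the start.
Magel2: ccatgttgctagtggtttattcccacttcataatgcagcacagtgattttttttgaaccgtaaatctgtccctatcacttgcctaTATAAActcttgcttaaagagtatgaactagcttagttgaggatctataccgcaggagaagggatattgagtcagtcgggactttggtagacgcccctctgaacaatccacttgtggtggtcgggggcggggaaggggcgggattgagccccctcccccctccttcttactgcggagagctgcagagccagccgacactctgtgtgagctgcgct
Over the whole promoter table, TATAAA was found on either strand in 13.6% of 32851 windows and TGCCGC in 11.6%. Of the imprinted genes 27 matched the table, with 42 windows, of which 7 (16.7%) held TATAAA and 10 (23.8%) held TGCCGC. The genes with TATAAA were Gnas, Magel2, Meg3, Phlda2 and Snrpn, and those with TGCCGC were Copg2, Grb10, Igf2, Meg3, Mest, Nnat, Plagl1, Snrpn and Zim1. These are matches of letters, several windows belong to the same gene, and no binding was measured here. Cdkn1c, H19, Impact, Nap1l4, Peg10, Rtl1 and Sgce were not matched. The windows of Rian, Mirg and Gnas, which were matched and called, are not printed.

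Zim1, in the Peg3 domain at the other end of chromosome 7, was low in the mutant lines but varied widely between them. Zim1 is a maternally expressed zinc finger gene whose start is 33971 bases from that of the paternally expressed zinc finger gene Peg3. Zim1 was at 1389.6 and 3295 in the WT lines, at 39.2 in the first mutant line and at 633 in the second. Both mutant lines lay below both WT lines, and the log2 change was -3.75 with an SE of 1.20 (adjusted p = 0.0611). Without mutant replicate 1 the change was -1.76 and without mutant replicate 2 it was -5.74, where a single mutant line leaves no spread of its own. The change passed the test by voom (-3.83, adjusted p = 0.0442). It also passed in limma with the replicate number as a block (-3.75, adjusted p = 0.00847), although these numbers did not pair the lines. Peg3, by contrast, was at 121668 and 88417 in the WT lines and 97999 and 116427 in the mutant lines (log2 change 0.04, SE 0.25, adjusted p = 0.914). Usp29, a paternally expressed ubiquitin protease gene, was at 189 and 131 in the WT lines and 125 and 150.4 in the mutant lines (adjusted p = 0.617).

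Igf2r and Grb10 set a single WT line apart from the other 3 lines. Both are maternally expressed and restrain growth: Igf2r encodes the receptor that carries IGF2 to the lysosome, and Grb10 an adaptor that dampens insulin and IGF receptor signalling. Igf2r (chr17:12875272-12962530, minus strand) was at 42372 in the first WT line, 5562 in the second, and 30544 and 28657 in the mutant lines. Grb10 (chr11:11830511-11938686, minus strand) was at 43040.3 in the first WT line, 4966 in the second, and 46134 and 42811 in the mutant lines. The second WT line was thus 7.62-fold below the first for Igf2r and 8.67-fold below it for Grb10, and the first WT line lay close to the mutant lines. Among the 8547 genes tested that averaged 500 or more normalized counts, Grb10 ranked 1st and Igf2r 2nd by log2 difference in favour of the first WT line. This cutoff was not among the planned settings, and the Y-linked Eif2s3y, 1st over all genes tested, fell below it. Over all 16926 genes tested Grb10 and Igf2r ranked 15th and 24th. Calcr, the calcitonin receptor gene from the list of other imprinted genes, named after its values were seen, was also low in that line, at 60.5 and 7.27 in the WT lines and 45.0 and 61.9 in the mutant lines, and ranked 25th.

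The comparison of genotypes for these 2 genes depended on that line. With all lines the log2 change was 0.95 for Igf2r (SE 0.84, adjusted p = 0.43) and 1.60 for Grb10 (SE 0.90, adjusted p = 0.223). Without WT replicate 2 the values were -0.52 and 0.05, and neither passed the test, whereas without WT replicate 1 they were 2.41 and 3.16 and both did. Airn, the paternally expressed antisense RNA that represses Igf2r on the paternal chromosome, was the reverse of Igf2r among the WT lines. It was at 469 in the first WT line, 1372 in the second, and 1009 and 771 in the mutant lines (log2 change 0.14, SE 0.47, adjusted p = 0.848). Its 2.92-fold excess in the second WT line ranked 2nd in that direction among the same genes and 118th over all genes tested. Airn spans Igf2r sequence on the opposite strand, but the annotated exons of the 2 genes share 0 bases. Igf2 counts were 6.89 times those of Igf2r in the first WT line, 44.9 times in the second, and 6.97 and 9.03 times in the mutant lines.

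**Figure D4:**
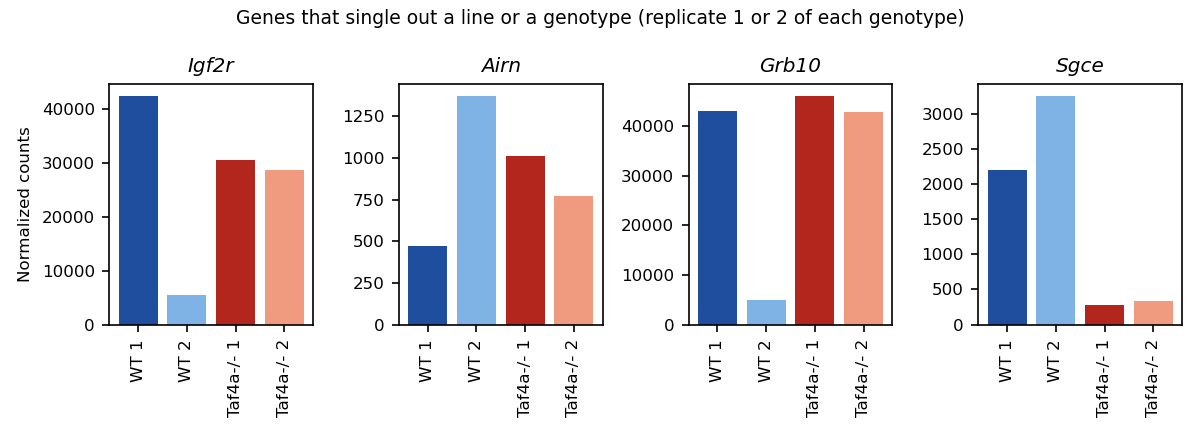
Normalized counts (vertical axis, from 0, separate scale for each gene) of Igf2r, Airn, Grb10 and Sgce, with 1 bar for each line. Igf2r and Grb10 are low in WT replicate 2 alone, Airn is highest there, and Sgce is low in both mutant lines.

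Differences between lines of the same genotype were larger in the WT pair. In the WT lines 8 of the 33 genes differed at least 2-fold, 5 higher in the first line (Igf2r, Grb10, Asb4, Nnat and Ndn) and 3 higher in the second (Cdkn1c, Zim1 and Plagl1), and 2 differed at least 4-fold. Over all genes tested, 6.96% differed at least 2-fold and 1.01% at least 4-fold between the WT lines. In the mutant lines 2 of the 33 differed at least 2-fold, Zim1 and Ascl2, against 5.27% of all genes. The median size of the log2 difference between lines was 0.53 in the WT pair and 0.22 in the mutant pair for the imprinted genes, and 0.26 and 0.16 for all genes. With 1 library for each line these are differences between libraries with no replicate, and a difference of the lines cannot be told apart from one of the cultures. Pluripotency markers also differed between the WT lines (5889 in the first and 2968 in the second), as did the DNA methyltransferase gene Dnmt3b (3514 and 912), and their part in these differences was not tested.

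**Figure D5:**
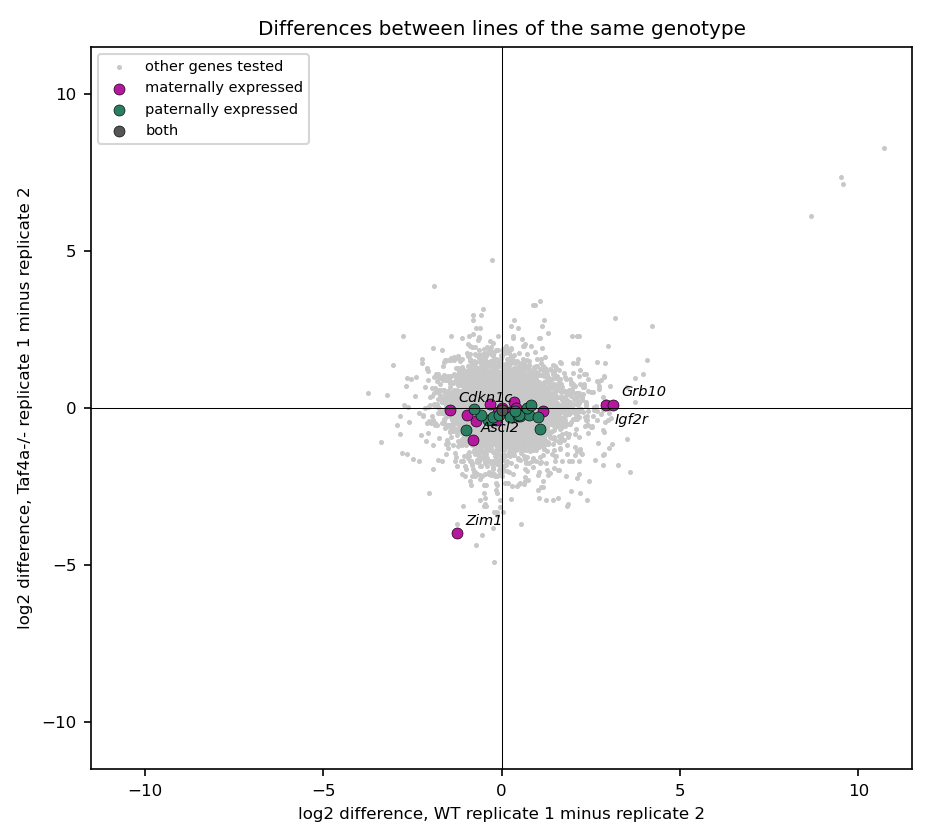
Log2 difference between the WT lines (horizontal axis) and between the mutant lines (vertical axis), replicate 1 minus replicate 2, for all genes tested (grey) and the imprinted genes (coloured by allele). Igf2r and Grb10 lie near 3 on the horizontal axis and near 0 on the vertical, and Zim1 lies at -3.98 on the vertical axis; the grey points at the upper right include Y-linked genes such as Eif2s3y.

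Of the imprinted genes that stand outside larger domains, Gnas fell and the others did not pass the test. Gnas, which encodes the stimulatory G protein subunit and several alternative products, was at 8756 and 8719.7 in the WT lines and 5922 and 6137 in the mutant lines. Lines of the same genotype were close to each other, and the level fell by 0.54 on the log2 scale (SE 0.11, adjusted p = 0.0195), a call lost without mutant replicate 1 (-0.51) and without mutant replicate 2 (-0.56), and with no variance trend. Its exons share 8.83% of their length with the antisense RNA Nespas and 13.1% with AF085738. Plagl1, a zinc finger growth regulator, was at 34601 and 69511 in the WT lines and 29845 and 48290.3 in the mutant lines (adjusted p = 0.495). Nnat, which encodes the small membrane protein neuronatin, was at 11127 and 5327 in the WT lines and 9077 and 14547 in the mutant lines (adjusted p = 0.287). Impact, a regulator of the Gcn2 kinase, lay between 3338 and 4151 in the 4 lines (adjusted p = 0.341). Zrsr1, a retrocopy of a splicing factor gene, was at 399.8 and 683 in the WT lines and 325 and 334 in the mutant lines (log2 change -0.66, SE 0.27, adjusted p = 0.112), and passed the test without WT replicate 1 (-1.05) but not without WT replicate 2 (-0.28).

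Other imprinted genes were compared from a list of 47 names. These gave 43 rows of counts, with more than 1 row for Tnfrsf22 and none for some names, and 36 were tested. Of these 1 rose and 11 fell, beside 11.3% of all genes called higher and 17.3% lower. The gene that rose, Nespas, was at 34.2 and 33.2 in the WT lines and 95.9 and 64.1 in the mutant lines (log2 change 1.19, adjusted p = 0.0462), and the call was lost when any line was left out (0.91 to 1.48), with no filter or one at 50, by voom and under the replicate block. The largest falls were in Dcn, the matrix proteoglycan decorin, at 7644 and 10625 in the WT lines and 302 and 436 in the mutant lines (log2 change -4.63), and in Gatm, an enzyme of creatine synthesis, at 343 and 415 against 72.4 and 48.7 (log2 change -2.65). Pon3 and Klf14, given with their domains above, were the next by size. Dcn is also a fibroblast marker of the list given above, and the part of a lower mesenchymal content was not tested. The median log2 change of the 36 genes was -0.22.

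Genes that set or keep imprints were compared from a list of 25 names, of which 23 were tested. Of these 9 rose and 0 fell, beside 11.3% and 17.3% of all genes, and at an unadjusted p under 0.05 and by voom 0 were lower too. Zfp57, which holds methylation at imprinting control regions, was at 1187 and 1193 in the WT lines and 2416 and 2659 in the mutant lines (log2 change 1.09, SE 0.12, adjusted p = 0.00305). Dnmt3l, the cofactor of de novo methylation in germ cells, was at 269 and 157 in the WT lines and 1694 and 1847 in the mutant lines (log2 change 3.10, SE 0.26, adjusted p = 0.0015). Dppa3, which protects methylation in the early embryo, and Zfp42 changed by 3.36 and 2.76. Dppa3 and Zfp42 also stand in the list of pluripotency markers. The methyltransferases Dnmt1, Dnmt3a and Dnmt3b did not pass the test. Dnmt3b was at 3514 and 912 in the WT lines and 5582 and 3962 in the mutant lines (log2 change 1.39, SE 0.58, adjusted p = 0.122).

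Around Igf2, 17 genes for receptors, binding proteins and related factors were tested, and 1 rose while 8 fell, beside 11.3% of all genes called higher and 17.3% lower. The falls named by size were in Igfbp1, an IGF-binding protein of the liver, at 956 and 2415 in the WT lines and 11.7 and 3.32 in the mutant lines (log2 change -7.68), in the ligand Igf1, at 1838 and 2601 in the WT lines and 128 and 248 in the mutant lines (log2 change -3.61), and in Pappa2 and Pappa, proteases that cut IGF-binding proteins, with changes of -2.18 and -2.07. The Pappa2 call was lost without WT replicate 1 (-2.15) or WT replicate 2 (-2.22). The summed visceral endoderm and hepatic markers fell in the same lines, and their part in the Igfbp1 value was not tested. The RNA-binding protein gene Igf2bp1 was the gene of the list that rose, with a log2 change of 0.78 (adjusted p = 0.021).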

How the data were processed

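The authors sequenced polyadenylated RNA with an unstranded TruSeq v2 kit. Per the processing notes the authors used CASAVA 1.8, TopHat 1.3.3, HTSeq 0.5.3p1 and DESeq with build mm9 (NCBIM37), and the deposited values are counts per gene divided by size factors. Every value was a whole multiple of the smallest value of its library (tolerance 0.01), which gave reads per library. Genes averaging 10 or more normalized counts were tested on log2(normalized count + 1) with limma 3.58.1 (R 4.3.3; empirical Bayes with a variance trend), genotype as the only term, and Benjamini-Hochberg adjustment over all genes tested. The fold changes are on that scale. The script was tested on simulated reads with a dispersion fixed at 0.01. That setting was not taken from the spread between these lines, so the test checked the code and not the calls. Coordinates are from GENCODE vM1. All listed genes are described, and from the other lists the genes called with at least a 2-fold change and no overlap, up to 4 in each direction. Dio3, Airn, Kcnq1, Pon2, Calcr, Dnmt1, Dnmt3a, Dnmt3b and Igf2bp1 were named after their values were seen. The members and lists were chosen with earlier results of these data known. Alternatives were other pseudocounts, filters, scalings, thresholds, variance settings, a replicate block and leaving out each line. Voom on recovered reads (the limma variant that weights log counts by precision) and upper-quartile scaling were chosen after seeing the data. Tests built for raw counts in other packages were not run.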

Additional observations from a re-analysis of the deposited data

How the results depend on the processing

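There were 2 lines for each genotype, and the effect of depth was not tested; the least abundant imprinted gene, Ascl2, had 22.5 to 46.5 normalized counts. The 9 imprinted genes called remained called under pseudocounts of 0.5 and 10, no filter, a filter at 50, equal totals, quantile normalization, upper-quartile scaling, voom and the replicate block. Without a variance trend 4 remained, with 2 called higher, and Meg3, Phlda2, Mest, Magel2 and Gnas were lost, and at an adjusted p under 0.01 also 2 were higher. Leaving out each line in turn, 4 to 12 imprinted genes were called higher, and Sgce, Rian, Mirg and Meg3 kept their call each time. Of the other imprinted genes 0 were called higher with no filter, with a filter at 50, by voom, under the replicate block or at an adjusted p under 0.01, 2 under quantile normalization, and 0 to 1 with a line left out. Called lower were 6 without a variance trend or at 0.01, and 6 to 9 with a line left out. Over all genes the calls higher and lower were 856 and 1741 without a variance trend, 331 and 1119 at 0.01, 747 and 1936 with a 2-fold change as well, 2903 higher at 0.1, and 624 to 2476 higher and 1222 to 3038 lower with a line left out.

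Under quantile normalization the median of all genes moved from -0.01 to 0.11. Directions turned for genes that were not called: Ascl2 (0.042 with equal totals, 0.28 with quantile normalization, 0.069 with upper-quartile scaling), Asb4 (0.025 with equal totals, 0.053 with upper-quartile scaling), and under quantile normalization Usp29 (0.13) and Rtl1 (0.022). With a line left out the changes ranged from -0.52 to 0.49 for Ascl2, -0.10 to 1.34 for Cdkn1c, -0.52 to 2.41 for Igf2r, -0.19 to 0.27 for Peg3, -0.46 to 0.068 for Usp29, -0.16 to 0.23 for Peg10, -0.62 to 0.55 for Asb4, -0.27 to 0.77 for Ndn, -0.87 to 0.13 for Plagl1 and -0.64 to 0.91 for Airn. Beyond the line left out, the cause was not tested. A fit with a line left out takes the spread of the lone line from the other genotype.

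The replicate numbers do not pair the lines: deviations of same-numbered lines correlated at 0.01 over genes, with 2 pairs. The Y-linked Eif2s3y and Ddx3y were read in replicate 1 of both genotypes and were at 0 in replicate 2 of both, so a block on the number also separates lines by these genes. With the number as a block, 10 imprinted genes were called, the 9 and Zim1. The count-model alternatives that had been planned were not run.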
